A study of Mus musculus with 8 samples.

Results

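The genes described here are the PI3K-like kinase family of the mouse, measured in activated B lymphocytes with and without the transcription factors Myc and Max. They are the kinases Atm, Atr, Prkdc, Mtor and Smg1, the family member Trrap, which has lost its kinase activity, and Telo2, Tti1 and Tti2, the subunits of the TTT complex. The 9 genes were chosen by name as a family, with earlier results of these libraries in view, so that their differences from the control are given as a description. All 9 were found among the 15681 genes of the deposited table by their Ensembl identifiers, and all 9 were among the 12489 genes that passed a filter on low values.

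PI3K-like kinases are very large proteins whose catalytic domain resembles that of lipid kinases but phosphorylates serine and threonine. Atm, Atr and the DNA-PK catalytic subunit encoded by Prkdc answer DNA damage, Mtor couples nutrients and growth factors to cell growth, and Smg1 phosphorylates Upf1 in nonsense-mediated mRNA decay. Trrap is the scaffold of acetyltransferase complexes and binds Myc, and the TTT complex works with the chaperone Hsp90 to fold and stabilise new family members. In B cells, Atm and DNA-PK act on the DNA breaks made during receptor gene assembly and class switching.

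The cells were mature B cells sorted from spleen, from mice 8 to 10 weeks old. Lipopolysaccharide (20 µg/ml) and interleukin 4 (20 ng/ml), which together induce proliferation and class switching, were added to the cultures, and cells were collected at 72 h. Libraries of their RNA fell into 4 groups of 2: heterozygous controls (control), Myc knock-out (Myc_KO), Max knock-out (Max_KO) and the knock-out of both genes (double_KO). The labels do not say which allele of the controls was heterozygous, how or in which cells the genes were deleted, or whether each library is from its own mouse. The p-values below therefore measure only the spread between these libraries.

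Groups follow the sample titles, which the columns of the table carry. For 2 libraries, Myc_KO replicate 2 and double_KO replicate 1, the description and genotype labels name the other genotype of this pair. The targeted genes go with the titles: Max was at 28.6 and 31.2 RPM (estimated reads per M of effective library size) in the libraries titled double_KO and at 70.4 and 59.8 in those titled Myc_KO, against 55.0 and 54.5 in the controls and 16.4 and 15.5 in Max_KO. Myc was at 111 and 116 RPM in the controls, at 48.3 and 55.7 in Myc_KO, at 38.7 and 55.3 in double_KO and at 192 and 176 in Max_KO. Libraries held 14.9 to 17.9 M estimated reads. All 7 B cell markers were detected in every library, with a summed level of 4906 to 4979 RPM in the controls and of 6143 to 7468 in libraries of the knock-outs. Only 3 of these 7 were called higher in each knock-out, and 4 were not called. The 3 were Ebf1, Ms4a1 and Pax5, with log2 changes of 1.55, 1.56 and 1.68 in Myc_KO. The 7 T cell markers summed to 279 to 327 RPM in the controls, 95.5 to 119 in Myc_KO, 175 to 244 in Max_KO and 127 to 155 in double_KO. Most of that sum was Thy1, at 323 and 275 RPM in the controls, which fell by 2.03, 0.67 and 1.29 on the log2 scale (limma adjusted p = 0.000129, 0.0226 and 0.00141). The other 6 went the opposite way and summed to 3.61 to 4.07 RPM in the controls, 24.4 to 44 in Myc_KO, 15.5 to 21.7 in Max_KO and 17.8 to 18.1 in double_KO. The 5 NK cell markers in the table summed to between 4.05 and 4.61 RPM in the controls and between 5.44 and 20.4 in the knock-outs, and the 5 myeloid markers in the table to between 14.1 and 14.5 and between 14.5 and 33.1. The myeloid markers split: Cd68, most of the control sum, fell by 1.69, 1.58 and 0.91 on the log2 scale (limma adjusted p = 0.000793, 0.00154 and 0.0167), whereas Adgre1 rose by 4.12, 2.85 and 2.9 and Itgam by 0.95, 1.44 and 0.99 (adjusted p up to 0.00398 and 0.0404). Of plasma cells, 5 markers summed to 1206 to 1259 RPM in the controls, 953 to 959 in Myc_KO, 574 to 658 in Max_KO and 799 to 1100 in double_KO. Among them Xbp1 fell by 0.89, 1.48 and 0.89 (limma adjusted p = 0.0026, 0.0004 and 0.00336), and Jchain fell by 2.67 in Max_KO (adjusted p = 0.000253). Ncr1, Klrd1 and Klrk1, which mark NK cells, were at 0 reads in both controls, and of the T cell markers Cd3e was at 0 in control replicate 1. Transcripts of mitochondrial DNA took 4.93% to 5.69% of control reads and 2.21% to 2.96% of knock-out reads. The part of these differences in the results below was not tested.

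Promoter windows of 7 of the 9 genes were found in the RefSeq table of GRCm38.p6, each from 250 bases before to 50 bases after an annotated start. The windows of Atm and Smg1 are shown because these genes carry the largest differences between groups, and a window of Telo2 because it alone held the sequence CACGTG, the E-box that Myc and Max bind as a dimer. Each is printed 5′ to 3′ on the strand of its gene, with matches to CACGTG, or to the related CACGCG on either strand, in capitals. The Atm window lies at chr9:53536622-53536921, that of Smg1 at chr7:118243588-118243887 and the Telo2 window at chr17:25115856-25116155, all on the minus strand.
Atm: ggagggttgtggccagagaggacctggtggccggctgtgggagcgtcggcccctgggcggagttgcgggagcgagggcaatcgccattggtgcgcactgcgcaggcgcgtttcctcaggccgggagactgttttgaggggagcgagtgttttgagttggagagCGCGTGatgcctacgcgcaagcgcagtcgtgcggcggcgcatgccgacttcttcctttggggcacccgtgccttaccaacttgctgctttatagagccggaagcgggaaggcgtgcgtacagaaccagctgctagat
Smg1: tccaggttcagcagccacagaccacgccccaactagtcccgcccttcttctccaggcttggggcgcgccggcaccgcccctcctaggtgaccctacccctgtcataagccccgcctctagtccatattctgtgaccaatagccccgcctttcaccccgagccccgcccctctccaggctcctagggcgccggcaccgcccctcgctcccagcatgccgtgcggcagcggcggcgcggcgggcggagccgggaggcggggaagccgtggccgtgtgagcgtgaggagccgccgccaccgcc
Telo2: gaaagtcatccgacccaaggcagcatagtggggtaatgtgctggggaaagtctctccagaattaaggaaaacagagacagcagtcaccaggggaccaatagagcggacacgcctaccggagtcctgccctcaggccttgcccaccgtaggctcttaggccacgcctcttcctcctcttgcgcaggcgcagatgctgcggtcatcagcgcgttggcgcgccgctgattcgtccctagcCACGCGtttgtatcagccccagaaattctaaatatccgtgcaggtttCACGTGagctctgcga
In the Atm window, CACGCG was found on the opposite strand, as CGCGTG at position -87 from the start. The Telo2 window held CACGCG at position -13 and CACGTG at position 35, and a Telo2 window with an earlier start held neither. The windows of Atr, Mtor, Smg1, Trrap and Tti1 held neither sequence. Among all 32851 windows of the table, 7.15% held CACGTG and 9.27% held CACGCG. A match is a string of letters, not a measured binding site, and binding was not measured here. Prkdc and Tti2 had no entry.

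Among the 9 genes, 6 were called higher than in the controls in Myc_KO, 7 in Max_KO and 6 in double_KO, and 0 were called lower in any of them (limma, adjusted p under 0.05 over all genes tested; 7, 7 and 7 higher and 0 lower at an unadjusted p under that threshold). Over all genes tested, 24.0% were called higher and 21.4% lower in Myc_KO, 22.3% and 17.4% in Max_KO, and 21.8% and 16.8% in double_KO. The median log2 change of the 9 genes was 0.52 in Myc_KO, 0.55 in Max_KO and 0.48 in double_KO, against 0.00, 0.02 and 0.02 over all genes tested. The 3 comparisons share the same 2 control libraries. Levels are relative to the bulk of transcripts in a library, so that a change in RNA per cell, or in the share of cells of a type, cannot be told apart from a change of these genes.

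**Figure D1:**
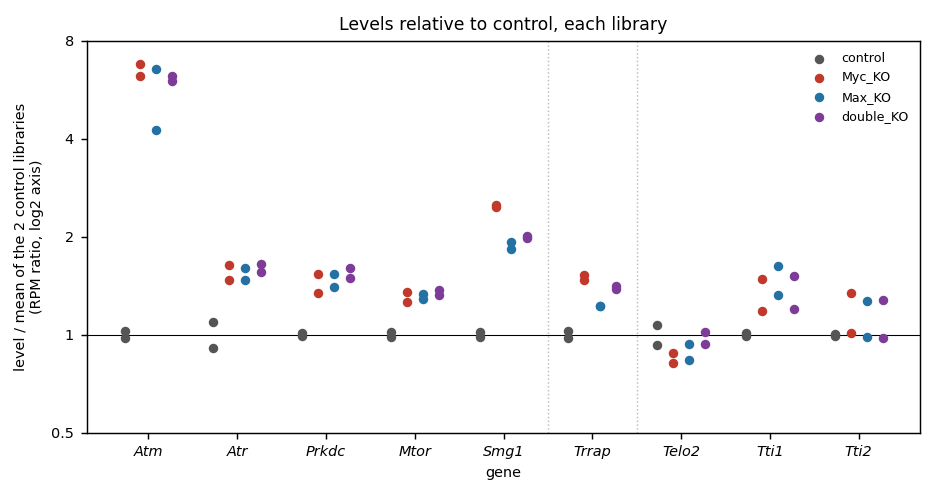
Level of each of the 9 genes in each library, divided by the mean of the 2 control libraries, on a log2 axis (ratio of RPM). Each point is 1 library, and the dotted lines separate the kinases, Trrap and the TTT complex. Atm lies far above the rest in the 6 knock-out libraries, Smg1 next, Telo2 and Tti2 lie on both sides of the control, and Tti1 lies above it in all 6.

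Atm, the kinase that signals DNA double-strand breaks, differed most. Its level was 58.3 and 61.0 RPM in the controls, 404 and 372 in Myc_KO, 254 and 390 in Max_KO and 370 and 358 in double_KO. All 6 knock-out libraries lay far above both controls, and the lowest of them, Max_KO replicate 1, stood apart from the other 5. Against the controls Atm was 6.50-fold higher in Myc_KO, 5.28-fold in Max_KO and 6.10-fold in double_KO. On the log2 scale the limma changes were 2.70, 2.40 and 2.61 (each with SE 0.171; adjusted p = 4.68e-05, 0.00017 and 0.000158). Of all genes tested, 1.19%, 1.06% and 0.953% had a higher log2 change in these comparisons. The call remained under each of the alternative settings and with each library left out, where the log2 change ranged from 2.09 to 2.71 in Max_KO. Atm (ENSMUSG00000034218) spans GRCm38 chr9:53439149-53536740 on the minus strand, with 64 exons in its longest coding transcript.

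Atr (ENSMUSG00000032409, chr9:95857597-95951781, plus strand), the kinase that answers stalled replication and single-stranded DNA, was at 41.3 and 49.8 RPM in the controls. It was at 74.8 and 67.1 in Myc_KO, 67.1 and 73.2 in Max_KO and 75.3 and 71.0 in double_KO, so that no knock-out library overlapped the controls. The log2 changes were 0.64, 0.63 and 0.69 (SE 0.117 each; limma adjusted p = 0.0029, 0.00406 and 0.00276). The estimated reads of Atr were not whole in any of the 8 libraries, as happens where reads are divided between a gene and overlapping or similar sequence, so its level is less certain than that of Atm, whose reads were whole in all 8. Antisense transcripts are annotated at Atr, and since the strand setting is not given in the sources used here, their reads cannot be told apart from those of Atr where they overlap. The antisense gene that overlaps Atr was estimated at 0.576 to 1.91 RPM over the 8 libraries, a level that also depends on this setting.

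Prkdc (ENSMUSG00000022672, chr16:15637866-15842235, plus strand), which encodes the kinase of DNA end joining, was at 47.9 and 46.8 RPM in the controls. Its levels were 63.4 and 72.9 in Myc_KO, 66.4 and 72.6 in Max_KO and 70.8 and 75.7 in double_KO. Again no library of a knock-out overlapped the controls, and the 3 knock-out groups overlapped each other. The log2 changes were 0.52, 0.55 and 0.63 (SE 0.103 each; limma adjusted p = 0.00416, 0.00396 and 0.0023).

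Mtor (ENSMUSG00000028991, chr4:148448611-148557683, plus strand), the kinase of the growth complexes mTORC1 and mTORC2, had the smallest differences of the 5 kinases. It was at 63.9 and 61.6 RPM in the controls, 79.2 and 84.9 in Myc_KO, 83.8 and 80.7 in Max_KO and 82.8 and 86.2 in double_KO. The groups did not overlap with the control, and the log2 changes were 0.39, 0.39 and 0.43 (SE 0.0839 each; limma adjusted p = 0.00667, 0.00769 and 0.00518). The call was lost in Myc_KO without the 2 disputed libraries (adjusted p = 0.0536) and in Max_KO without control replicate 2 (adjusted p = 0.0542).

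Smg1 (ENSMUSG00000030655, chr7:118131308-118243670, minus strand), the kinase of nonsense-mediated decay, came second to Atm. It was at 136 and 142 RPM in the controls, 343 and 348 in Myc_KO, 255 and 268 in Max_KO and 279 and 275 in double_KO. Every knock-out library lay above the controls, and both Myc_KO libraries lay above all 4 libraries of the other knock-outs. Smg1 was 2.49-fold higher than the controls in Myc_KO, 1.88-fold in Max_KO and 1.99-fold in double_KO, that is by 1.32, 0.91 and 0.99 on the log2 scale (each with SE 0.071; limma adjusted p = 4.34e-05, 0.000202 and 0.000164). Higher log2 changes were found for 5.48%, 8.22% and 7.17% of the genes tested.

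Trrap (ENSMUSG00000045482, chr5:144767732-144859778, plus strand), the scaffold of the TIP60 and SAGA acetyltransferase complexes, was at 154 and 161 RPM in the controls, the highest RPM among the 9 genes there. It was at 241 and 231 in Myc_KO, 193 and 193 in Max_KO and 222 and 218 in double_KO. The 4 groups did not overlap, in the order control, Max_KO, double_KO and Myc_KO. The log2 changes from the control were 0.58, 0.29 and 0.48 (SE 0.0715 each; limma adjusted p = 0.000449, 0.0132 and 0.00157). The call in Max_KO was lost without control replicate 1 and without Max_KO replicate 2 (adjusted p up to 0.0901).

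**Figure D2:**
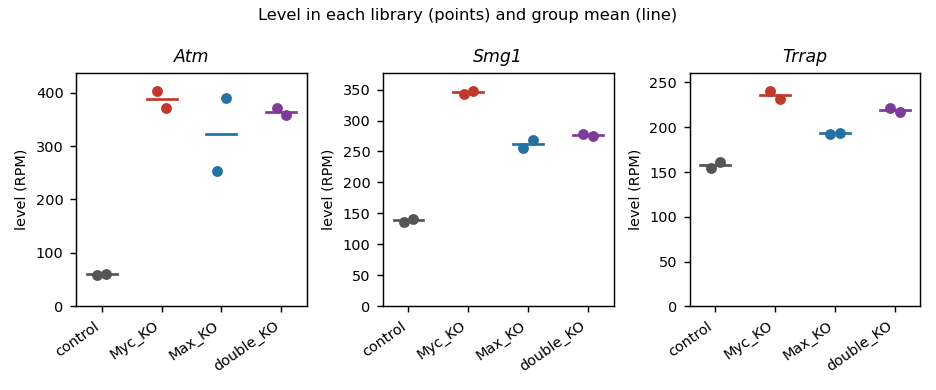
Levels of Atm, Smg1 and Trrap in RPM (vertical axes, each starting at 0) in the 4 groups; points are the 2 libraries of a group and the line is their mean. Atm in Max_KO shows the widest gap between libraries, 254 and 390 RPM, while Smg1 and Trrap are highest in Myc_KO.

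Of the TTT genes, only Tti1 was called in the main fit, and only in Max_KO. Under other settings Tti1 was also called in Myc_KO with groups from the descriptions, and in Myc_KO and double_KO with libraries scaled to the same total. Telo2 (chr17:25099570-25115967, minus strand), the subunit that binds the kinases, was at 34 and 29.7 RPM in the controls, 26.1 and 28 in Myc_KO, 29.7 and 26.6 in Max_KO and 32.4 and 29.7 in double_KO. Both Myc_KO libraries lay below the controls and the other knock-outs overlapped them; the log2 changes of -0.23, -0.18 and -0.03 did not pass the test (SE 0.125 each; limma adjusted p = 0.162, 0.296 and 0.85), the last turning positive when libraries were scaled to the same total. Tti1, the large scaffold subunit (chr2:157981803-158028433, minus strand), was at 34.9 and 35.8 RPM in the controls, 52.4 and 41.6 in Myc_KO, 57.4 and 46.9 in Max_KO and 53.5 and 42.5 in double_KO. All its knock-out libraries lay above the controls, but the 2 libraries of each knock-out stood far apart. The change in Max_KO passed the test and the others did not (log2 changes 0.40, 0.55 and 0.43, SE 0.162 each; limma adjusted p = 0.0749, 0.0268 and 0.0664). That call was lost without either control library, without Max_KO replicate 1, and with a variance model that has no trend (adjusted p up to 0.129). Tti2, the third subunit (chr8:31150315-31164702, plus strand), was at 23.4 and 23.7 RPM in the controls, 23.8 and 31.7 in Myc_KO, 23.2 and 29.9 in Max_KO and 23.1 and 30.1 in double_KO, and did not pass the test (log2 changes 0.22, 0.16 and 0.16, SE 0.197 each; limma adjusted p = 0.386, 0.548 and 0.546), with a sign that turned under several alternatives. The reads of Tti2 were not whole in any library, and Tti2 overlaps Mak16 on the other strand, a ribosome assembly gene that fell by 0.53, 0.53 and 0.48 on the log2 scale (limma adjusted p = 0.00319, 0.00384 and 0.00616). Reads from the stretch where this pair overlaps cannot be told apart without the strand setting.

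Within each knock-out as grouped by the titles, Tti1 and Tti2 split by the number in the sample title. In this grouping each knock-out has 1 library numbered in the 30s and 1 in the 40s, while both controls are in the 30s. With groups from the descriptions, both Myc_KO libraries are in the 30s and both double_KO libraries in the 40s. There, number and genotype cannot be told apart for these groups. What the numbers stand for is not given in the labels. Tti2 was 1.33-, 1.29- and 1.31-fold higher in the 40s library of Myc_KO, Max_KO and double_KO, where each 30s library was between 23.1 and 23.8 RPM, close to the controls. Tti1 went the other way, 1.26-, 1.22- and 1.26-fold higher in the 30s library. Telo2, the 5 kinases and Trrap did not reach 1.2-fold in 1 direction in all 3 groups. Of all genes tested, 5.89% were at least 1.2-fold higher and 4.21% at least 1.2-fold lower in the 40s library of all 3 knock-outs. When the fit held the number series as well, Tti1 passed the test in all 3 knock-outs, and the changes of Tti2 were -0.03 in Max_KO and -0.03 in double_KO. With groups and replicate numbers from the descriptions in the fit, Tti2 was called in double_KO (log2 change 0.391, limma adjusted p = 0.0364).

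**Figure D3:**
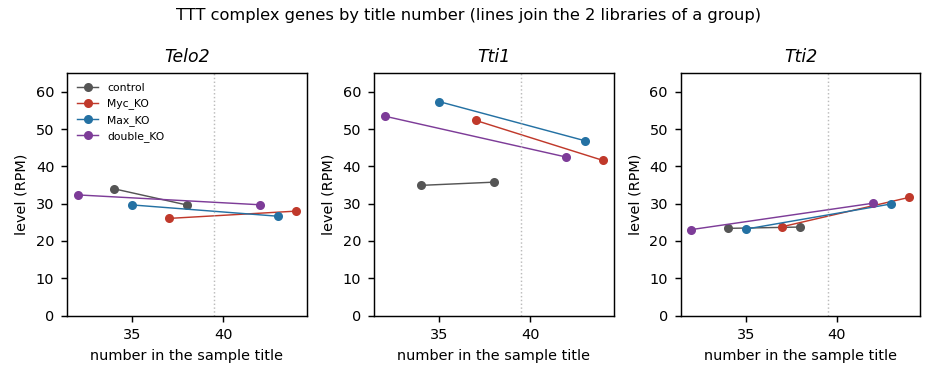
Levels of Telo2, Tti1 and Tti2 in RPM (vertical axes) against the number in the sample title (horizontal axes); a line joins the 2 libraries of a group and the dotted line separates the 30s from the 40s. In all 3 knock-outs Tti1 is lower and Tti2 higher in the 40s library.

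The knock-outs were next compared with each other, which asks whether the family depends on which of the partners is missing. Between Max_KO and Myc_KO, 4.12% of all genes tested were called, and among the 9 genes only Smg1, which was lower in Max_KO (log2 difference -0.40, SE 0.071; limma adjusted p = 0.0233). The Smg1 libraries of these groups did not overlap, but the call was lost in 12 of the 23 alternatives, among them the groups from the descriptions (adjusted p = 0.536) and the fit without the 2 disputed libraries. Trrap had a difference of -0.29 that missed the threshold (SE 0.0715; limma adjusted p = 0.0654), and Atm one of -0.30 (SE 0.171; adjusted p = 0.387). Between double_KO and Myc_KO, 0.456% of all genes and 0 of the 9 genes were called by limma (1 lower at an unadjusted p under 0.05), with the largest difference again in Smg1 (-0.32, SE 0.071; adjusted p = 0.115). Between double_KO and Max_KO, 0.04% of all genes and 0 of the 9 genes were called (1 higher at an unadjusted p under 0.05), with the smallest adjusted p in Trrap (difference 0.19, SE 0.0715; limma adjusted p = 0.723). A difference that misses the threshold does not show that the groups are alike.

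Whether the losses of Myc and Max added up was tested by the interaction, the log2 value of double_KO minus Myc_KO minus Max_KO plus control. It was negative for 8 of the 9 genes and called for Atm (-2.49, SE 0.241; limma adjusted p = 0.000918), Smg1 (-1.23, SE 0.1; 0.000877), Trrap (-0.40, SE 0.101; 0.0228) and Atr (-0.58, SE 0.166; 0.0336). Prkdc (-0.45; adjusted p = 0.0531) and Mtor (-0.35; 0.0621) missed the threshold. For each of the 4 called genes, the change in double_KO was smaller than the sum of the changes in Myc_KO and Max_KO. Over all genes tested, 27.3% were called in the interaction. The calls of Atm and Smg1 remained in all alternatives, whereas that of Atr was lost in 10 and that of Trrap in 11 of 23. The Max transcript itself had a log2 change of -1.78 in Max_KO against the controls and of -1.12 in double_KO against Myc_KO. Whether this difference has a part in the interactions was not tested.

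The 6 family members with long coding sequences were set beside other long genes, because size is what they share outside their function. Their coding sequences run from 7647 bases in Mtor and 7923 in Atr to 12384 in Prkdc in the GENCODE vM21 annotation. The log2 change of all genes rose with coding length in these libraries: the median in Myc_KO was -0.20 for genes under 1000 bases, -0.0023 from 1000 to 2000, 0.19 from 2000 to 4000, 0.43 from 4000 to 6000 and 0.60 for the 294 genes of 6000 or more. In Max_KO and double_KO these long genes had medians of 0.50 and 0.59, and 64.6%, 59.9% and 62.2% of them were called higher in the 3 comparisons. Atr, Prkdc, Mtor and Trrap differed from the median of the long genes by -0.21 to 0.12. Atm lay above that median by 2.10, 1.90 and 2.02, ranking 4, 2 and 2 from the top of the 294, and Smg1 by 0.72, 0.41 and 0.41, ranking 43, 58 and 61. The part of coding length, or of what moves with it in library preparation, in the differences of the family was not tested.

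**Figure D4:**
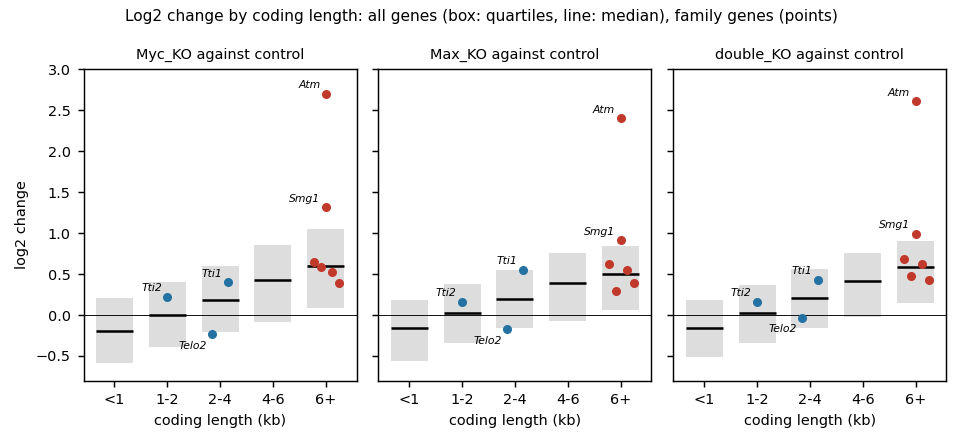
Log2 change from the control (vertical axis) by coding length in kb (horizontal axis) in the 3 comparisons. Grey boxes span the quartiles of all genes in a class, black lines are their medians, red points are the 6 long family genes and blue points the TTT genes; Atm and Smg1 lie above the box of the longest class, and Atr, Prkdc, Mtor and Trrap lie within it.

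Per kb of coding sequence, the order of the genes changed between the groups. The order depends on this divisor, because untranslated sequence also gives reads and its share differs between the genes. The annotated transcript of Tti2 has 4159 bases with 1611 coding, and that of Smg1 has 15557 with 10974 coding. An order by transcript length was not computed. In the controls Tti2 came first at 14.6 RPM per kb, followed by Trrap at 13.6, Smg1 at 12.7 and Telo2 at 12.6, of which Smg1 and Telo2 overlapped. Tti1 at 10.9, Mtor at 8.21, Atm at 6.48, Atr at 5.75 and Prkdc at 3.82 followed without overlap between neighbours in that order. In all 3 knock-outs Atm came first, at 42.2 RPM per kb in Myc_KO, 35 in Max_KO and 39.6 in double_KO, and Smg1 second, at 31.5, 23.9 and 25.2, without overlap between them. Prkdc remained last in each group.

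Several members share a start region with a gene on the other strand. Npat, a regulator of histone genes whose start lies 307 bases from that of Atm, was at 45.1 and 45.1 RPM in the controls and at 70.9 to 83.5 in the knock-outs. It rose in each, by 0.80, 0.73 and 0.76 on the log2 scale (each with SE 0.102; limma adjusted p = 0.000528, 0.00115 and 0.000932), each smaller than that of Atm. Mcm4, a subunit of the replicative helicase 466 bases from Prkdc, rose by 0.37, 0.37 and 0.54 (limma adjusted p = 0.0038, 0.0044 and 0.000862). Rprd1b, which binds the tail of RNA polymerase II and starts 64 bases from Tti1, rose by 0.64, 0.60 and 0.58 (limma adjusted p = 0.000877, 0.00157 and 0.00184).

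Partners of the family were read from lists written from textbook knowledge, and their counts stand against the shares of all genes tested given above for each knock-out. The lists were not matched for coding length, with which the log2 change of all genes rose. Of genes under 1000 bases, 13.4% were called higher and 31.6% lower in Myc_KO. Of partners named below, Csnk2b, Pfdn6, Pih1d1, H2afx and Nhej1, which fell in each knock-out, have 771, 381, 870, 429 and 495 coding bases. Rhno1, which fell in Myc_KO and double_KO, has 705, and Hus1 and Taf9b, which rose, have 843 and 879. Nbas and Ep400, which also rose, have 7068 and 9105. The part of coding length in the counts of the lists was not tested. The Hsp90 and R2TP machinery, which matures the kinases with the TTT complex, had 0 of 15 genes called higher and 7, 5 and 4 called lower in Myc_KO, Max_KO and double_KO, with medians of -0.32, -0.21 and -0.16, beside the 21.4%, 17.4% and 16.8% of all genes tested that were lower (limma; 0 higher and 9, 7 and 5 lower at an unadjusted p under 0.05). Pih1d1, the R2TP subunit that binds phosphorylated Telo2, fell from 60.1 and 52.3 RPM in the controls to 34.4 to 41.7 in the knock-out libraries (log2 changes -0.66, -0.50 and -0.63, SE 0.112; limma adjusted p = 0.00211, 0.00964 and 0.00342). Csnk2b, the regulatory subunit of the casein kinase that phosphorylates Telo2, fell by 0.58, 0.46 and 0.47, and the prefoldin subunit Pfdn6 by 0.67, 0.45 and 0.46. With groups from the descriptions, 4 genes in place of 7 were lower in Myc_KO, and scaling to the same total brought the medians to -0.18, -0.10 and -0.04.

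Of the genes for proteins that recruit or activate Atm and Atr, 2, 3 and 4 of 17 were called higher and 2, 0 and 1 lower, with medians of 0.11, 0.15 and 0.24. Hus1, of the clamp that loads at Atr sites, rose by 0.67, 0.59 and 0.67 (SE 0.149; limma adjusted p = 0.00762, 0.015 and 0.00914), while Rhno1, which binds that clamp, fell by 0.52 in Myc_KO and 0.39 in double_KO (SE 0.107; limma adjusted p = 0.0052 and 0.0221). Rpa1, which coats single-stranded DNA, rose in Max_KO and double_KO by 0.24 and 0.30 (limma adjusted p = 0.036 and 0.0167). Scaling to the same total raised the higher calls of this list to 6, 5 and 8, and groups from the descriptions gave 4, 1 and 1.

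Substrates of Atm and Atr went both ways, with 5, 6 and 6 of 13 called higher and 3, 4 and 2 lower. Mdc1, the mediator that docks on marked chromatin, rose from 48.6 and 56.0 RPM in the controls to 98.3 to 111 in the knock-outs, with log2 changes of 0.92, 1.0 and 1.03 (SE 0.103; limma adjusted p = 0.000291, 0.00033 and 0.000305). Trp53bp1, the end-protection factor required for class switching, rose by 0.58, 0.75 and 0.73 (SE 0.084). H2afx, the histone that the kinases mark at breaks, fell by 0.66, 0.36 and 0.59 (SE 0.106; limma adjusted p = 0.00152, 0.0265 and 0.0034). Without the 2 disputed libraries, 3 genes in place of 6 were higher in double_KO and 1 in place of 3 lower in Myc_KO.

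Among the end-joining partners of DNA-PK, 2 of 9 were called higher in each knock-out and 2, 1 and 2 lower, close to the 24.0%, 22.3% and 21.8% higher and 21.4%, 17.4% and 16.8% lower over all genes tested. The 2 lower calls in Myc_KO became 0 without the 2 disputed libraries and with scaling to the same total. Xrcc5, the larger Ku subunit, rose from 12.7 and 12.9 RPM to 19.7 to 27.8 (log2 changes 0.98, 0.75 and 1.09, SE 0.134; limma adjusted p = 0.000747, 0.00335 and 0.000683). Lig4, the ligase of the pathway, rose in Myc_KO by 1.2 and in double_KO by 0.85. Nhej1, the ligase cofactor XLF, fell from 5.23 and 5.28 RPM to 1.81 to 2.79 (log2 changes -1.01, -1.30 and -1.21, SE 0.309; limma adjusted p = 0.0281, 0.0115 and 0.0156).

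Of the 7 tested partners of Mtor, 3, 1 and 2 were called higher and 1, 0 and 0 lower. Mapkap1, the mTORC2 subunit Sin1, rose in all 3 knock-outs by 0.56, 0.65 and 0.63 (SE 0.103; limma adjusted p = 0.0029, 0.00207 and 0.00224). Rptor, which defines mTORC1, rose by 0.47 in Myc_KO and 0.38 in double_KO, and Rictor, which defines mTORC2, by 0.82 in Myc_KO, where its libraries were at 54.3 and 81.0 RPM. In the decay pathway of Smg1, 5, 4 and 5 of 12 genes were called higher and 0 lower (also 0 lower by limma at an unadjusted p under 0.05, with 5, 4 and 6 higher). Nbas, which acts in this pathway and in vesicle transport, led with log2 changes of 1.10, 0.82 and 1.06 (SE 0.107; limma adjusted p = 0.000154, 0.000866 and 0.000315). Upf2, which binds Upf1, rose by 0.44 in Myc_KO and 0.37 in double_KO. Without the 2 disputed libraries, 3 genes in place of 5 were higher in double_KO.

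Both complexes built on Trrap had members moving each way, as did all genes tested (24.0%, 22.3% and 21.8% higher and 21.4%, 17.4% and 16.8% lower). In the TIP60 complex 4, 5 and 4 of 17 genes were called higher and 2, 2 and 1 lower; Epc1, Epc2 and the remodelling ATPase Ep400 rose, with log2 changes in Myc_KO of 1.01, 1.16 and 0.72. The genes called lower in this complex were Ruvbl1, in Myc_KO and Max_KO, and Ruvbl2, in all 3 knock-outs. Both also belong to the R2TP list. In the SAGA complex 6, 6 and 6 of 18 were called higher and 3, 2 and 1 lower. Atxn7, of its deubiquitinating module, rose by 1.06, 0.96 and 0.90, Taf9b by 1.12, 1.34 and 1.12, and the adaptor Tada2b by 0.87, 0.57 and 0.65.

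Lipid kinases with a related catalytic fold were called higher for 6, 5 and 4 of 9 genes and lower for 0, 0 and 1, with medians of 0.42, 0.37 and 0.40 (limma; 6, 6 and 6 higher and 0, 1 and 2 lower at an unadjusted p under 0.05). Pik3cg, the catalytic subunit of PI3K gamma, was at 7.03 and 8.97 RPM in the controls, 38.3 and 44.8 in Myc_KO, 12.6 and 18.8 in Max_KO and 22.8 and 37.8 in double_KO. Its log2 changes were 2.38, 0.95 and 1.88 (SE 0.277; limma adjusted p = 0.000343, 0.0263 and 0.00147). Pik3cg is also expressed in T and myeloid cells, whose markers went both ways in the same libraries (Thy1 and Cd68 lower, the sum of the other T cell markers and Adgre1 higher), and their part in its change was not tested. Pik3c2a rose by 1.42, 1.23 and 1.27 (SE 0.121) and Pi4ka by 0.44, 0.61 and 0.44 (SE 0.0965). Of 6 phosphatases that act on the kinases or their substrates, 0 were called higher and 2, 1 and 1 lower by limma (0 higher and 2, 1 and 2 lower at an unadjusted p under 0.05). Ppp5c, which also binds Hsp90, fell by 0.48, 0.29 and 0.38 (SE 0.0984). Scaling to the same total gave 2, 2 and 3 phosphatases higher in place of 0.

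**Figure D5:**
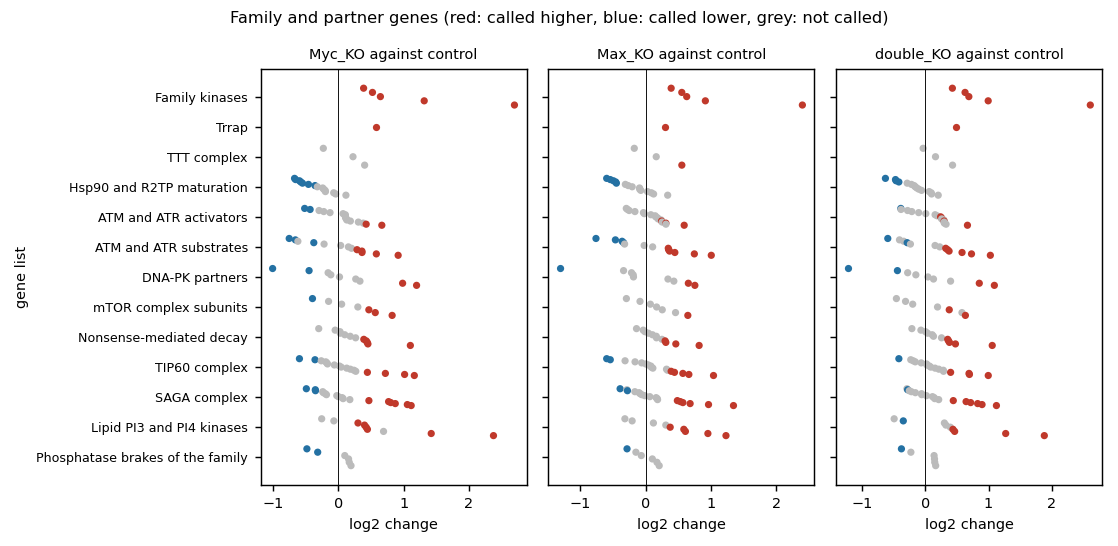
Log2 change from the control (horizontal axis) of each gene of the family and its partner lists (rows) in the 3 comparisons; red points were called higher, blue lower and grey points were not called. The 5 kinases and Trrap are all red, the Hsp90 and R2TP list holds only blue and grey points, and the other lists hold points on both sides of 0.

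The genes whose pattern over the 8 libraries was nearest to that of Atm were found by the root mean square (RMS) difference of log2 values, each centred on its own mean, over the 9923 genes with a mean of at least 5 RPM. They were Ifit1 (0.166), Mpeg1 (0.187), Sorl1 (0.192), 9930111J21Rik2 (0.194) and Atp7a (0.229). Ifit1, an interferon-induced gene, was at 9.83 and 10.2 RPM in the controls, 98.9 and 72.2 in Myc_KO, 45.1 and 80.4 in Max_KO and 70.7 and 69.4 in double_KO. Like Atm it was lowest among the knock-outs in Max_KO replicate 1, a likeness built into its choice by nearness to Atm. The nearest family member to Atm was Smg1, at a much larger RMS difference of 0.668. Within the family the closest pair was Prkdc and Mtor, at 0.0924. Values were centred but not scaled, so the RMS difference reflects the size of the changes as well as their shape. The 8 libraries share their groups.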

How the data were processed

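The table holds log2 values as deposited by the authors, 1 per gene and library. Their spacing fits estimated reads plus 0.5, divided by an effective library size in M and put on the log2 scale, from which the reads were recovered; levels in RPM are reads divided by that size. CASAVA 1.8, cutadapt and RSEM 1.2.3 with GRCm38 are named in the submitters' processing notes; the annotation and the strand setting: not given in the sources used here. Total estimated reads were 14.9 to 17.9 M per library.

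Genes whose log2 value reached 1 RPM in at least 2 libraries were kept (12489 of 15681). All 8 libraries were fitted in 1 model of 4 groups with limma 3.58.1 in R 4.3.3 (eBayes with trend, 4 residual and 4.23 prior degrees of freedom), checked on simulated data. Tests were two-sided, adjusted by Benjamini-Hochberg over all genes, with a threshold of 0.05. An exact permutation test of 2 against 2 cannot go below p = 0.333 and was not used. A count test was not run, since not all reads are whole. Tables and figures used Python 3.11.15, pandas 2.3.3, numpy 2.4.6 and matplotlib 3.10.9.

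The members and lists were chosen with earlier results of these data known. Named beside the 9 genes are, for each list, up to 3 called genes with the lowest adjusted p, head-to-head neighbours within 1000 bases and the 5 genes most like Atm; Mak16, Ruvbl1, Ruvbl2, Myc, Max and the cell type markers were named outside this rule, after their values were seen. A gene the rule names is not reported here. Symbols, coordinates and coding lengths came from GENCODE vM21, and promoters from RefSeq GRCm38.p6. Long genes were to be chosen by a protein of at least 2000 residues; a coding length of at least 6000 bases was used instead (92.3% of tested genes have one). Alternatives were other scalings, filters, pseudocounts, variance models, thresholds and groupings, a replicate block, the number series, and each library left out.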

Additional observations from a re-analysis of the deposited data

Results flagged for a closer look

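The effect of losing Max differed between cells with and without Myc for 4 of the 9 genes, by limma's test of the interaction (adjusted p under 0.05 over all genes tested, of which 27.3% were called). The interaction was -2.49 for Atm (adjusted p = 0.000918), where Max loss alone went with a log2 change of 2.40 and Max loss in Myc-deficient cells with one of -0.09. It was -1.23 for Smg1 (adjusted p = 0.000877), with 0.91 and -0.32 in these settings. For Atr it was -0.58 (adjusted p = 0.0336), with 0.63 and 0.05. For Trrap it was -0.40 (adjusted p = 0.0228), with 0.29 and -0.10. The values for Atm and Smg1 passed the threshold in all 23 alternatives, while Atr missed it in 10 (adjusted p up to 0.201) and Trrap in 11 (adjusted p up to 0.124). Max loss was not equal by transcript in these settings, with a log2 change of Max of -1.78 in Max_KO against the controls and of -1.12 in double_KO against Myc_KO. Whether this has a part in the interactions was not tested.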

How the results depend on the processing

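The calls of Atm, Smg1, Atr and Prkdc against the control remained in all 3 knock-outs under each of the 23 alternatives. The number of the 9 genes called against the control stayed at 6 or 7 in Myc_KO, 5 to 7 in Max_KO and 6 or 7 in double_KO; at an adjusted p of 0.01 it was 6, 5 and 6. Between Max_KO and Myc_KO, the 1 called gene became 0 with groups from the descriptions, without the 2 disputed libraries, with a replicate block under either grouping, in only the groups compared, without trend and at an adjusted p of 0.01, and 2 under quantile normalization and with the number series in the model; leaving out 1 library gave 0 to 2. Between double_KO and Myc_KO it went from 0 to 1 with the number series. In the interaction, 4 became 2 with the replicate block, without trend and at an adjusted p of 0.01, and 7 with the number series; it was 3 without the 2 disputed libraries, where Atr and Trrap lost the call, and 4 with groups from the descriptions, where Trrap lost it. Leaving out 1 library gave 2 to 4. The cause of these shifts was not tested. The block uses the numbers of the descriptions, which put both Myc_KO libraries at 2 and both double_KO libraries at 1; it left 6, 7 and 6 genes called against the control. Samples share only these numbers: control and Max_KO deviations of equal number correlated at r = -0.105 over genes (2 pairs). Crossing the numbers of Max_KO, an alternative chosen after seeing the data, gave 6, 7 and 6 genes against the control, 0 between Max_KO and Myc_KO and 2 in the interaction.

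Signs turned only for changes that had not passed the test. Telo2 in double_KO was at 0.0876 with libraries scaled to the same total, and between -0.132 and 0.0644 with 1 library left out (0.0274 without double_KO replicate 2). Tti2 was at -0.0071 in Myc_KO with groups from the descriptions, with or without the replicate block. With the number series in the model Tti2 was at -0.0331 in Max_KO and -0.0325 in double_KO, and ran from -0.0231 to 0.345 in Max_KO and from -0.031 to 0.354 in double_KO with 1 library left out. Scaling to the same total moved the median log2 change of all genes to 0.15, 0.12 and 0.14, and the share of called genes that were higher from 52.8%, 56.2% and 56.6% to 66.4%, 66.7% and 68.9%.

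Over all genes, leaving out 1 library gave 3397 to 5612 calls in Myc_KO against 5671, 2676 to 5027 in Max_KO against 4954, and 2650 to 4932 in double_KO against 4823, lowest in each without control replicate 1. At an adjusted p of 0.01 the counts were 3516, 2787 and 2740. Over all alternatives the counts ran from 13 to 1302 between Max_KO and Myc_KO, 0 to 291 between double_KO and Myc_KO, 0 to 88 between double_KO and Max_KO and 1294 to 4639 in the interaction. With 2 libraries a group, the SE of a log2 change from the control ran from 0.071 for Smg1 to 0.197 for Tti2, so that a difference of a given size could pass the test for 1 gene and miss it for another; the lone library of an arm was assumed to vary like the others.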
